A study of Mus musculus with 6 samples.

Results

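The MAX network is a family of basic helix-loop-helix leucine-zipper transcription factors built around MAX, the partner that its members need to bind E-box DNA. Transcripts of 10 of its genes were followed here: Myc, Mycn and Mycl, the MYC family; Max itself; Mxd1, Mxi1, Mxd3, Mxd4 and Mnt, whose products compete for MAX; and Mga, a large MAX partner. The genes were chosen by name, because FOXR2 is known to act with MYC proteins, and with earlier results of these data known. All 10 were among the 24537 rows of the table of read counts, and all 10 passed the filter on low counts.

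MYC proteins paired with MAX recruit coactivators and raise transcription of genes for growth, nucleotide synthesis and ribosome assembly. MXD and MNT proteins paired with MAX recruit the SIN3 corepressor to the same E-boxes, and MGA joins MAX to a Polycomb complex. In the developing brain Mycn is the member of dividing neural progenitors, and Mxd genes are known for their activity in cells that leave the cycle.

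The samples were 6 brain tumors of CD-1 IGS mice, raised by in utero electroporation, a method that puts DNA into cells of the embryonic brain with an electric pulse. The 3 libraries titled FOXR2 came from tumors given PdgfraD482V (a mutant PDGF receptor), DNp53 (a dominant-negative p53) and FOXR2. The 3 libraries titled Control came from tumors given PdgfraD482V and DNp53 with the word Control in place of FOXR2, so every tumor carried the receptor and the p53 construct. The sources used here do not give animal age, tumor latency or the promoters of the constructs. The authors also deposited a sheet of group names, and it contradicts the titles in 6 of 6 libraries. Groups follow the titles throughout, and if the sheet is right every direction below turns round. Mouse Foxr2 did not decide between them, with 22, 1 and 7 counts in FOXR2 replicates 1, 2 and 3 and 4, 10 and 7 counts in Control replicates 1, 2 and 3.

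Depth was 13429489 to 17927025 counts per library. Summed markers of oligodendrocyte precursors, Pdgfra included, were 5297 to 7447 CPM, in which counts are set to 1 common depth with TMM factors, in the libraries titled FOXR2 and 4462 to 5081 CPM in those titled Control. These sums did not overlap, and 4 of the 6 markers had a higher mean in the libraries titled FOXR2. Taken singly, 0 of the 6 had groups apart with the libraries titled FOXR2 above. Of all tested genes 30.3% had groups apart in either direction. Pdgfra alone had 3599, 2497 and 3263 CPM in FOXR2 replicates 1, 2 and 3. In Control replicates 1, 2 and 3 it had 2045, 2506 and 2018 CPM. Whether the PdgfraD482V construct adds to these counts was not tested. FOXR2 replicate 2 stood apart in 10 microglia and macrophage markers, at 1146 CPM against 4.60 to 13.9 CPM in the other libraries. Summed T cell markers reached at most 3.80 CPM and red cell markers at most 0.298 CPM. By Xist and Y-linked genes, FOXR2 replicate 2 and Control replicates 2 and 3 came from females and the other libraries from males. Tumors were measured in bulk, so fewer cells of a type and less RNA per cell cannot be told apart.

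Mycn had the largest fitted difference of the network, and the sequence around its start is shown because E2F factors are known to control this gene and the window holds the letters of an E2F element. The window is chr12:12941787-12942086 of RefSeq build GRCm38.p6, minus strand, from 250 bases before the annotated start to 50 after it. Capitals mark the letters TTTGGCGC, found at 2 places on the gene's strand, with their first bases 183 and 168 bases before the start.

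Mycn promoter: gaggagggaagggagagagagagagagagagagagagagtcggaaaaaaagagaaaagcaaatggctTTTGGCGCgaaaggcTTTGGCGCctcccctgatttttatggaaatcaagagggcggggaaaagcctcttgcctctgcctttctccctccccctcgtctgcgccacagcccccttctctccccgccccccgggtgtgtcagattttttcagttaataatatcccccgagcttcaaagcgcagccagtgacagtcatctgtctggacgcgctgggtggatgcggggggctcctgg

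These letters, searched on both strands and chosen after the sequence was seen, are in 0.514% of 32851 RefSeq promoter windows of 300 bases. Among the 11 windows that matched 9 of the members (none matched Myc), Mycn alone held them. The E-box that MYC and MAX bind, CACGTG, was in 3 of the 11 windows, those of Max, Mxd4 and Mnt, and in 7.15% of all windows. It reads the same on both strands and overlaps no copy of the E2F letters here. A match of letters is a description and says nothing on binding. The 30 bases around each E-box, 5′ to 3′ on the gene's strand with the E-box in capitals, are given for comparison, since the network's own DNA element lies in genes of the network. They span chr12:76962234-76962263 (minus strand) for Max, chr5:34187912-34187941 (minus strand) for Mxd4 and chr11:74830789-74830818 (plus strand) for Mnt, in the same build.

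Max: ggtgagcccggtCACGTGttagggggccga
Mxd4: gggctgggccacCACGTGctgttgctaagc
Mnt: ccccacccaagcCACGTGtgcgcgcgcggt

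No gene of the network was called different between the groups by edgeR's quasi-likelihood test, in which a gene is called when its Benjamini-Hochberg adjusted p over 13101 tested genes is under 0.05. Of all tested genes 0.908% were called higher and 1.38% lower with FOXR2 in the title. At an unadjusted p under 0.05 there were 3 members higher (Mycn, Myc and Mxd1) and 1 lower (Mnt). These 4 of 10 compare with 24.9% of all tested genes. The groups did not overlap in the same 4 members, against 30.3% of all tested genes. DESeq2 called 3 members higher (Mycn, Myc and Mxd1) and 0 lower, where it called 6.99% of all tested genes higher and 7.03% lower. By limma-voom 0 members were called in either direction, against 1.85% of all tested genes.

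**Figure D1:**
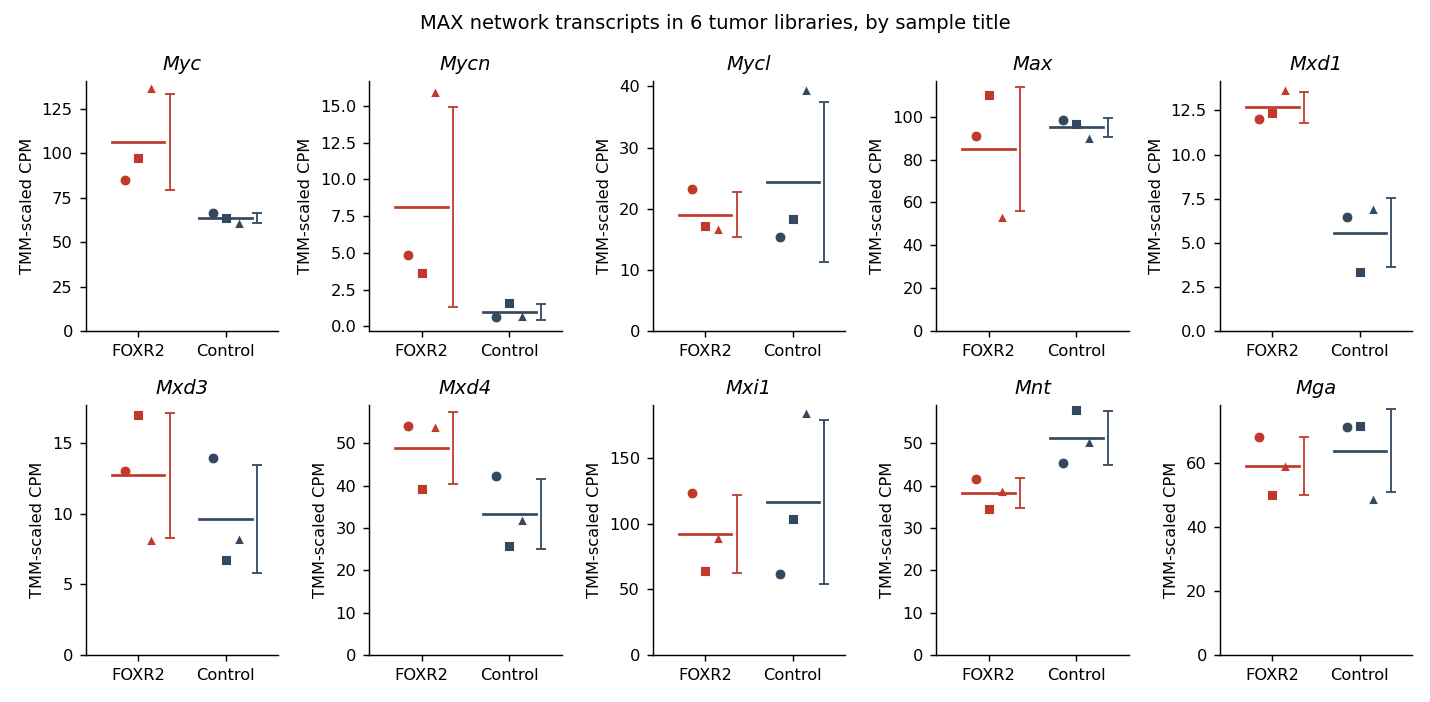
Level of each network gene in each library, in TMM-scaled CPM on linear axes from 0, with libraries titled FOXR2 left of those titled Control. Circles, squares and triangles are replicates 1, 2 and 3, horizontal lines the group means and bars 1 SD (n = 3 each). The groups are apart in Myc, Mycn, Mxd1 and Mnt and overlap in the other members.

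Mycn, the MYC gene of neural progenitors and of MYCN-amplified childhood tumors, had 74, 57 and 218 counts in FOXR2 replicates 1, 2 and 3 and 11, 27 and 12 counts in Control replicates 1, 2 and 3. On the CPM scale these were 4.83, 3.61 and 15.9 in the libraries titled FOXR2, against 0.660, 1.61 and 0.697 in those titled Control. Every library titled FOXR2 lay above every library titled Control, and FOXR2 replicate 3 lay far above its group. The fitted log2 fold change was 3.03 ± 0.72 (SE; edgeR adjusted p = 0.0688), so the difference did not pass. Without FOXR2 replicate 3 it was 2.08 (edgeR adjusted p = 0.162), and DESeq2 gave 3.05 (DESeq2 adjusted p = 0.000768).

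Neuron markers moved with the groups in the same direction as Mycn. All 6 of them had a higher mean in the libraries titled FOXR2, and none was at 0 in any library. The groups were apart in 4, where 30.3% of all tested genes had groups apart in either direction. By edgeR 1 of the 6 was called, where 0.908% of all tested genes were called higher and 1.38% lower. Their sum was 391 to 420 CPM in the libraries titled FOXR2, against 60.9 to 121 CPM in those titled Control. Within the libraries titled FOXR2 the sums were close, at 420, 396 and 391 CPM in replicates 1, 2 and 3. The part of neuron content in the Mycn difference was not tested.

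Myc, the most abundant member of its family here, measured 84.7, 97.4 and 137 CPM in FOXR2 replicates 1, 2 and 3, against 66.3, 63.8 and 60.9 CPM in Control replicates 1, 2 and 3. The libraries titled Control lay close together (SD 2.69 CPM), while FOXR2 replicate 3 was again the highest of all. The means were 106 ± 27.1 and 63.6 ± 2.69 CPM (SD, n = 3 each), and the log2 fold change was 0.74 ± 0.22 (edgeR adjusted p = 0.102). Without FOXR2 replicate 3 the fitted value was 0.51 (edgeR adjusted p = 0.212), and by DESeq2 the adjusted p with all libraries was 0.0277.

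Mycl, a family member with roles in lung and dendritic cells, had 23.3, 17.2 and 16.6 CPM in the libraries titled FOXR2, against 15.4, 18.3 and 39.4 CPM in those titled Control. Control replicate 3 was the highest by far and the groups overlapped. The log2 fold change of -0.36 ± 0.39 (edgeR adjusted p = 0.607) turned to 0.17 without Control replicate 3.

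The balance of Mycn and Myc was compared within each library as log2 of their CPM ratio, with 0.5 added to each CPM. The ratio was -4.0, -4.57 and -3.06 in FOXR2 replicates 1, 2 and 3, against -5.85, -4.93 and -5.68 in Control replicates 1, 2 and 3. Put as a share, Mycn stood at 5.70%, 3.70% and 11.6% of the Myc CPM in the libraries titled FOXR2 and at 0.995%, 2.52% and 1.15% in those titled Control. The groups did not overlap, and their means differed by 1.61 (exact two-sided permutation p = 0.1, the smallest that 3 against 3 allows). The size depends on the added value, and was 2.0 with 0.1 added and 0.88 with 2 added.

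Max, the obligate partner, stood at 91.0, 110.0 and 53.4 CPM in the libraries titled FOXR2, against 98.2, 96.6 and 90.2 CPM in those titled Control. FOXR2 replicate 3, with the highest Myc and Mycn, had the lowest Max. The log2 fold change was -0.16 ± 0.27 (edgeR adjusted p = 0.747), and without FOXR2 replicate 3 it was 0.079.

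**Figure D2:**
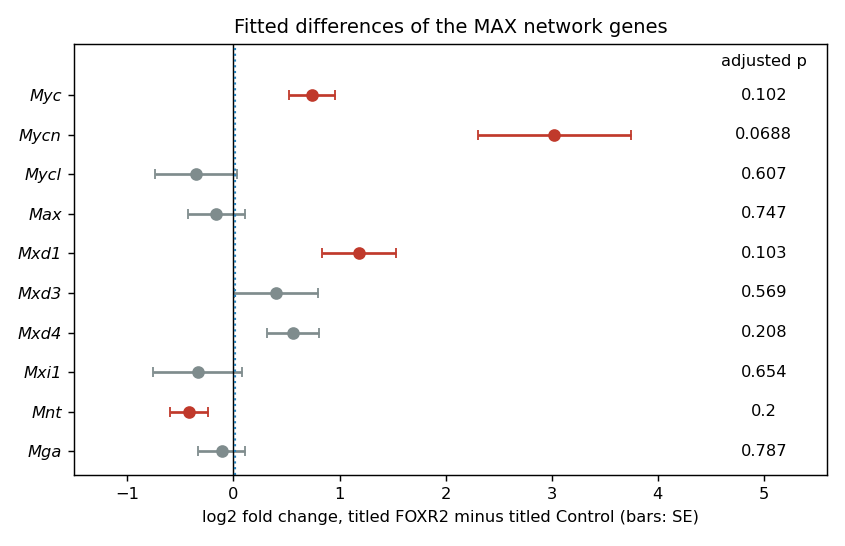
Fitted log2 fold change of each network gene, libraries titled FOXR2 minus those titled Control, with bars of 1 SE and edgeR adjusted p at the right. Red marks the 4 genes whose groups are apart, and the dotted line is the median of all tested genes (0.011). Mycn lies furthest from 0, at 3.03, and no adjusted p is under 0.05.

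Mxd1 (also known as Mad1) is a MAX partner that opposes MYC and comes on as cells differentiate. It had 12, 12.3 and 13.6 CPM in FOXR2 replicates 1, 2 and 3, against 6.48, 3.34 and 6.91 CPM in Control replicates 1, 2 and 3. The libraries titled FOXR2 lay close together and all above those titled Control. Its log2 fold change was 1.18 ± 0.35 (edgeR adjusted p = 0.103; DESeq2 adjusted p = 0.0188), and 0.93 to 1.36 with any 1 library left out. Mxd1 thus lay on the same side as Myc and Mycn, whose proteins it competes with.

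Mnt, a broadly expressed repressor that counters MYC also in dividing cells, had 41.5, 34.6 and 38.7 CPM in the libraries titled FOXR2, against 45.3, 58.0 and 50.3 CPM in those titled Control. The groups were apart, with the libraries titled FOXR2 lower. The difference was small, with a fitted log2 difference of -0.42 ± 0.18 (edgeR adjusted p = 0.200). It stayed between -0.51 and -0.31 with any 1 library left out.

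Mxd4, another MXD repressor, had 54.0, 39.2 and 53.7 CPM in the libraries titled FOXR2, against 42.2, 25.7 and 31.9 CPM in those titled Control. The groups overlapped through FOXR2 replicate 2 and Control replicate 1 (log2 fold change 0.56 ± 0.24, edgeR adjusted p = 0.208). Mxd3, the MXD member known from S phase, had 13.0, 17.0 and 8.17 CPM in the libraries titled FOXR2, against 14.0, 6.73 and 8.25 CPM in those titled Control. Its spread within each group was as wide as the distance between them (log2 fold change 0.40 ± 0.40, edgeR adjusted p = 0.569).

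Mxi1, a MYC antagonist that hypoxia induces, ranged widely, with 123, 64.2 and 89.3 CPM in the libraries titled FOXR2 and 62.1, 104 and 184 CPM in those titled Control. Control replicate 3 held the highest level, as for Mycl, and without it the log2 fold change turned to 0.16, from -0.34 ± 0.42 with all libraries (edgeR adjusted p = 0.654). Summed markers of mature oligodendrocytes were 186, 4803 and 1308 CPM in FOXR2 replicates 1, 2 and 3. In Control replicates 1, 2 and 3 they were 1544, 236 and 3390 CPM. Their part in the Mxi1 levels was not tested. Mga had 68.1, 49.8 and 59.0 CPM in the libraries titled FOXR2, against 71.1, 71.3 and 48.8 CPM in those titled Control, and the groups overlapped (log2 fold change -0.11 ± 0.22, edgeR adjusted p = 0.787).

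Levels can be set beside each other between genes only per length, and CPM was divided by the kilobases of each gene's merged exons in GENCODE M21. Isoform use was not measured, and long merged exons lower such a value. Over the 6 libraries Myc averaged 31.3 CPM per kilobase, Max 25.0, Mxi1 15.3, Mnt 9.67, Mycl 5.38, Mxd4 4.85, Mxd3 4.73, Mga 4.0, Mycn 1.38 and Mxd1 1.29. In this order Mnt lay above Mycl in 6 of 6 libraries, and Max above Mxi1, Mxi1 above Mnt and Mga above Mycn in 5 of 6. Myc lay above Max in 3 of 6 libraries, namely those titled FOXR2. The neighbours from Mycl through Mga, and Mycn with Mxd1, changed places between libraries.

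**Figure D3:**
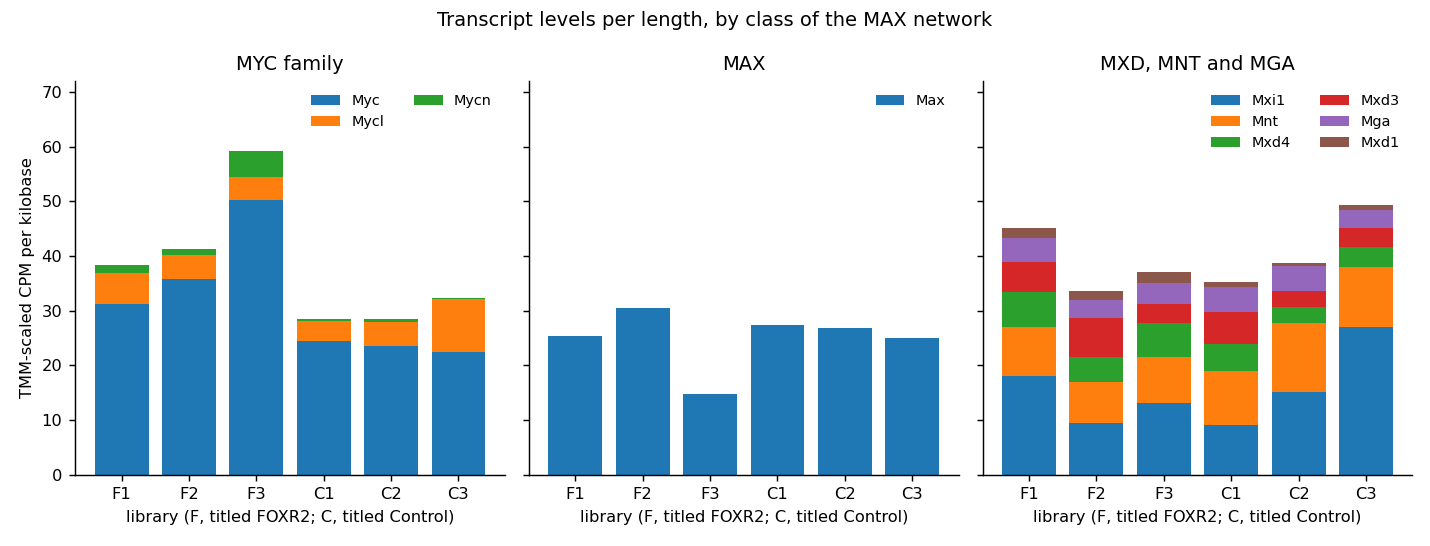
Stacked levels of the network genes in each library, in TMM-scaled CPM per kilobase of merged exons, for the MYC family, Max, and the MXD, MNT and MGA genes. F1 to F3 are replicates 1 to 3 titled FOXR2 and C1 to C3 those titled Control. The MYC family sum is 38.4 to 59.3 in F1 to F3 and 28.4 to 32.4 in C1 to C3, most of it Myc in every library.

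The MYC family summed to 38.4, 41.2 and 59.3 CPM per kilobase in FOXR2 replicates 1, 2 and 3, against 28.4, 28.5 and 32.4 in Control replicates 1, 2 and 3. Myc made up 81.2% to 87.0% of that sum in the libraries titled FOXR2 and 69.2% to 85.9% in those titled Control. Mycn made up 2.66% to 8.14% in the libraries titled FOXR2 and 0.653% to 1.71% in those titled Control. The repressor partners of MAX (4 MXD-type genes and Mnt) summed to 40.6, 30.4 and 33.2 CPM per kilobase in the libraries titled FOXR2, against 30.7, 34.0 and 46.1 in those titled Control. The MYC family sum was therefore 0.945, 1.35 and 1.79 times the MXD and MNT sum in FOXR2 replicates 1, 2 and 3 and 0.926, 0.837 and 0.702 times in Control replicates 1, 2 and 3. FOXR2 replicate 1 lay next to Control replicate 1. In FOXR2 replicate 3 the MYC family sum was 3.99 times the level of Max, against 1.35 to 1.52 times in the other libraries titled FOXR2 and 1.04 to 1.29 times in those titled Control. These sums carry no test, and they say nothing on protein.

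Genes with Gm, LOC or Rik names were passed over in the search for neighbours. On chromosome 12 the nearest other tested genes after Mycn in the RefSeq order are Ddx1, an RNA helicase gene, and Nbas, a Golgi-to-ER transport gene, which in human tumors are often gained together with MYCN. Between Mycn and these genes lie 8 and 9 annotated genes. On the other side 26 and 27 lie between Mycn and the neighbours Smc6 and Gen1. Nbas had 69.5, 90.1 and 157 CPM in FOXR2 replicates 1, 2 and 3, against 62.0, 76.8 and 42.2 CPM in Control replicates 1, 2 and 3. Ddx1 had 312, 318 and 462 CPM in the libraries titled FOXR2, against 335, 348 and 306 CPM in those titled Control. FOXR2 replicate 3, the library with the highest Mycn, was the highest in both. The DNA repair genes Smc6 and Gen1, the nearest tested genes on the other side, had 126 and 14.4 CPM in that library, also their highest, beside 73.6 to 101 and 5.4 to 13.3 CPM in the other libraries. None of these 4 genes was called (edgeR adjusted p from 0.210 to 0.712), and copy number was not measured.

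On chromosome 15, Trib1, a pseudokinase gene, stood at 98.0, 87.5 and 97.0 CPM in the libraries titled FOXR2, against 55.0, 62.2 and 47.8 CPM in those titled Control. Asap1, a GTPase-activating protein gene, stood at 70.3, 81.2 and 106 CPM in the libraries titled FOXR2, against 50.0, 56.7 and 45.7 CPM in those titled Control. In both genes the groups were apart, and neither passed (log2 fold changes 0.78 ± 0.17 and 0.76 ± 0.21, edgeR adjusted p = 0.0615 and 0.0920). Pvt1, the noncoding RNA gene next to Myc, had 29.5, 56.4 and 42.9 CPM in the libraries titled FOXR2, against 19.6, 31.4 and 35.4 CPM in those titled Control, and overlapped (edgeR adjusted p = 0.302). Nsmce2, a SUMO ligase gene, had 44.4, 41.5 and 53.3 CPM in the libraries titled FOXR2, against 31.6, 34.6 and 38.1 CPM in those titled Control, with groups apart (fitted log2 difference 0.42 ± 0.18, edgeR adjusted p = 0.208). The groups were thus apart in 3 of the 4 neighbours of Myc, where 30.3% of all tested genes had groups apart, and in 0 of the 4 neighbours of Mycn. Those 3, Trib1, Nsmce2 and Asap1, have 24, 26 and 26 annotated genes between them and Myc.

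**Figure D4:**
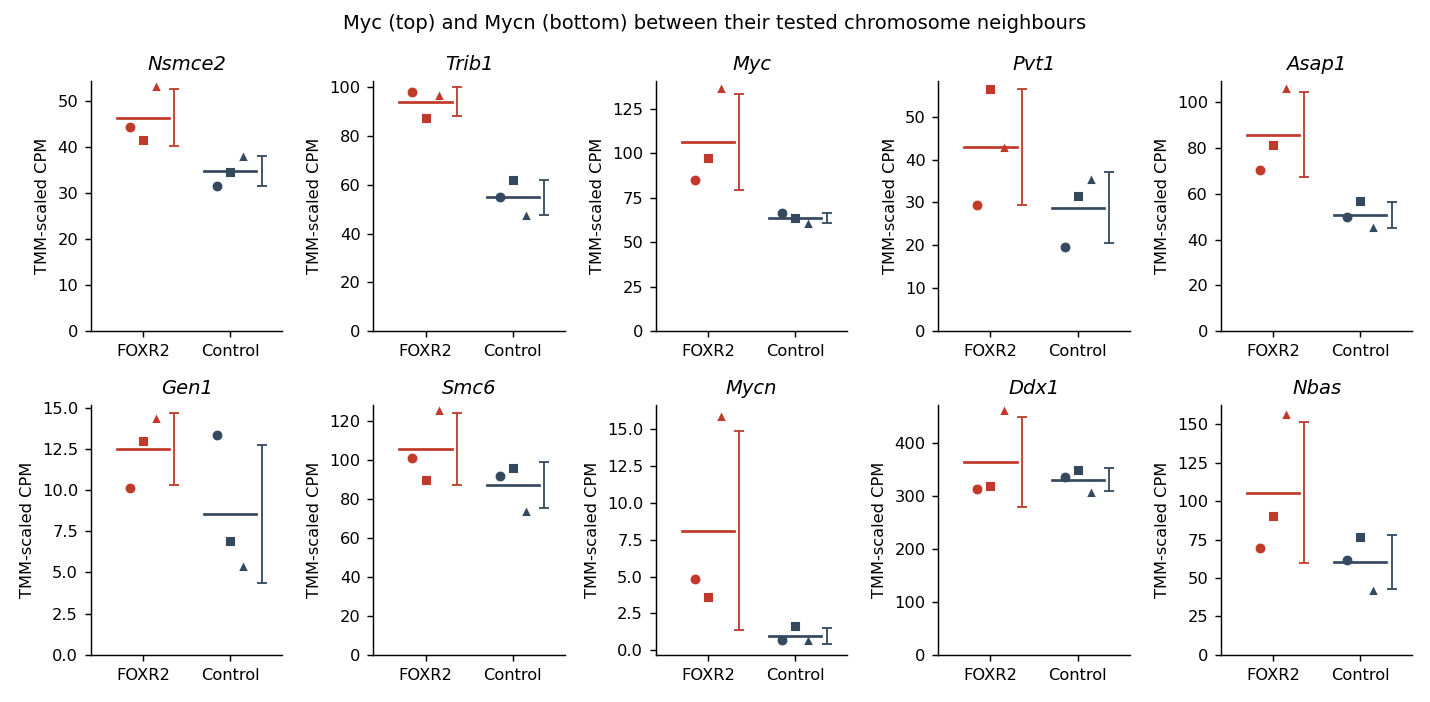
Levels of Myc (top row) and Mycn (bottom row) with the 2 nearest tested genes on each side (Gm, LOC and Rik names passed over), in TMM-scaled CPM on linear axes from 0, libraries titled FOXR2 left of those titled Control. Symbols, lines and bars are replicates 1, 2 and 3 (circle, square, triangle), means and 1 SD (n = 3 each). FOXR2 replicate 3 is the highest library for Mycn and for its 4 neighbours.

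The genes whose levels followed those of Mycn and Myc most closely over the 6 libraries were found by Pearson's r of log2(CPM + 0.5) among 12189 genes. For Mycn they were Adck5, Ankrd6 and Zfp870 (r = 0.997, 0.995 and 0.992). For Myc they were Ptpn22, Cbx6 and Unc5d (r = 0.997, 0.996 and 0.993). With 6 libraries, 91 genes had an r over 0.95 with Mycn and 87 with Myc, and all libraries enter both the choice and the value.

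In 10 lists of genes that act with, on or below MYC proteins, 132 of 135 genes were tested. Of these 2 were called higher (1.52%) and 6 lower (4.55%), against 0.908% and 1.38% of all tested genes. The lists were set up with earlier results of these data known, and the called nucleolar genes were among those results in part. With 1 library left out, 0 were called higher, and 5 were called lower without FOXR2 replicate 2, 1 without Control replicate 3 and 0 without any other library. With animal sex as a covariate 0 were called in either direction (6 higher and 20 lower at an unadjusted p under 0.05).

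Nucleolar and ribosome assembly genes, classical targets that MYC induces, had 5 members called lower of 20 tested and 0 higher. These are 25% called lower, against 1.38% of all tested genes, of which 0.908% were called higher. At an unadjusted p under 0.05, 12 were lower and 0 higher, 60% of the list against 24.9% of all tested genes. Since this list was set up with earlier results known, these shares are a description. All but Ubtf were fitted below 0, and their median log2 fold change was -0.71, against 0.011 over all tested genes. Ppan, needed for the large ribosomal subunit, had 28.4, 21.6 and 21.6 CPM in the libraries titled FOXR2, against 74.7, 108 and 93.6 CPM in those titled Control (fitted log2 difference -1.95 ± 0.22, edgeR adjusted p = 0.0283). The ribosomal DNA transcription gene Tcof1 had 36.7, 44.6 and 39.6 CPM in the libraries titled FOXR2, against 156, 202 and 102 CPM in those titled Control (fitted log2 difference -1.93 ± 0.27, edgeR adjusted p = 0.0379). Every library titled FOXR2 lay below every library titled Control in both genes.

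Rrs1, a ribosome assembly factor gene, fell to 40.9, 57.6 and 50.5 CPM in the libraries titled FOXR2, against 127, 105 and 101 CPM in those titled Control (edgeR adjusted p = 0.0437). Wdr12, of the PeBoW complex, fell to 31.1, 49.9 and 37.0 CPM, against 91.2, 93.8 and 77.1 CPM in the libraries titled Control (edgeR adjusted p = 0.0489). Mybbp1a, a nucleolar MYB-binding protein gene, fell by 1.08 ± 0.21 on the log2 scale (edgeR adjusted p = 0.0489). Over the alternative fits, Ppan, Tcof1, Rrs1, Wdr12 and Mybbp1a lost their calls in 7, 6, 9, 10 and 12. They kept them in 6, 7, 4, 3 and 1. The nucleolar genes thus lay on the opposite side to Myc and Mycn, whose own differences did not pass.

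Metabolic genes that MYC induces gave 0 calls by edgeR in 25 tested, with 19 fitted below 0 and a median log2 fold change of -0.33. At an unadjusted p under 0.05, 9 were lower and 0 higher, which is 36% of the list against 24.9% of all tested genes. DESeq2 called 4 of the 25 lower, among them Slc1a5, Gart and Srm, and 0 higher. It called 7.03% of all tested genes lower and 6.99% higher. Slc1a5, a glutamine transporter gene, had 16.5, 28.5 and 4.31 CPM in the libraries titled FOXR2, against 81.5, 173 and 76.1 CPM in those titled Control (fitted log2 difference -2.74 ± 0.66, edgeR adjusted p = 0.0716). The purine synthesis gene Gart and the spermidine synthase gene Srm had log2 fold changes of -1.03 ± 0.26 and -0.93 ± 0.26 (edgeR adjusted p = 0.0779 and 0.0937). Odc1, the rate-limiting enzyme of polyamine synthesis and a textbook MYC target, was looked at after its values were seen. It had 508, 475 and 1004 CPM in the libraries titled FOXR2, against 404, 489 and 333 CPM in those titled Control (edgeR adjusted p = 0.240), and was highest in FOXR2 replicate 3.

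**Figure D5:**
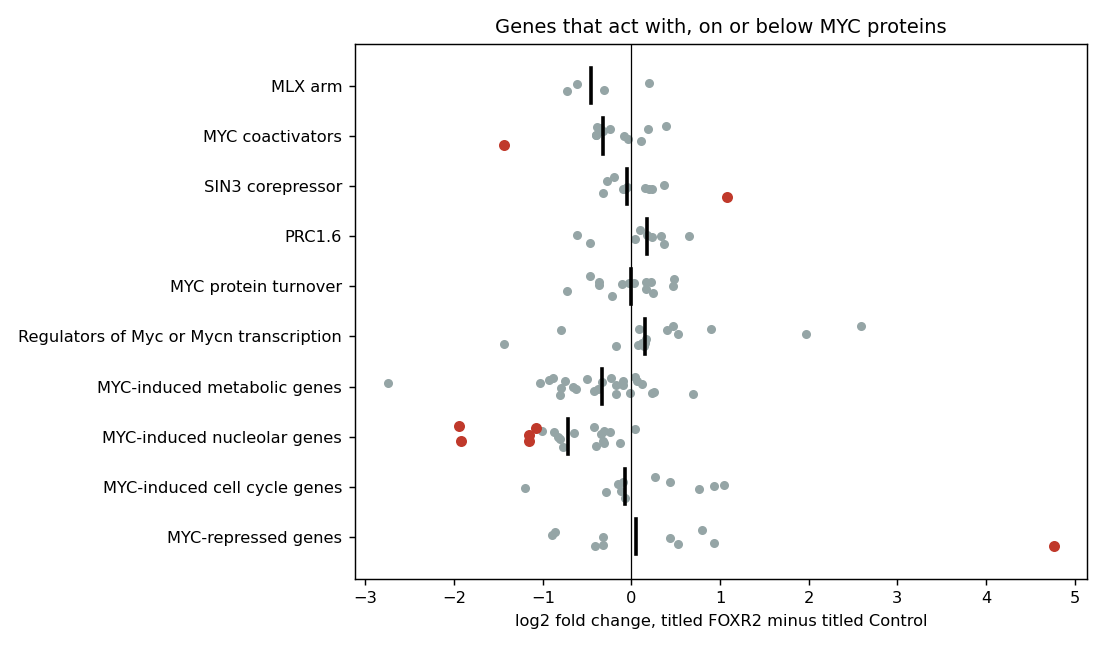
Log2 fold change (libraries titled FOXR2 minus those titled Control) of each tested gene of 10 lists, with black bars at the list medians and red points for genes called by edgeR. The nucleolar list has its median at -0.71 and 5 called genes below 0. The other called genes are Ruvbl2 below 0 and Sap30 and Thbs1 above it.

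Among the 13 tested coactivators that MYC binds, Ruvbl2 was called lower (7.69%, against 1.38% of all tested genes). None was called higher, against 0.908% of all tested genes. At an unadjusted p under 0.05 the share of the list was 15.4%, below the 24.9% of all tested genes. Ruvbl2, an ATPase of the TIP60 and INO80 complexes, had 122, 131 and 93.5 CPM in the libraries titled FOXR2, against 310.2, 367 and 264 CPM in those titled Control (fitted log2 difference -1.44 ± 0.21, edgeR adjusted p = 0.0388). The groups were apart, and over the alternative fits Ruvbl2 lost its call in 7 and kept it in 6. The list as a whole had 10 members fitted below 0 and a median of -0.32.

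In the SIN3 corepressor, which MXD and MNT proteins recruit, 1 of 11 tested genes was called higher and 0 lower, with a list median of -0.048. This is 9.09% called higher, against 0.908% of all tested genes, of which 1.38% were called lower. At an unadjusted p under 0.05 the share of the list was also 9.09%, below the 24.9% of all tested genes. Sap30, a subunit of that complex, had 45.1, 44.6 and 44.7 CPM in the libraries titled FOXR2, against 21.0, 19.1 and 23.8 CPM in those titled Control (fitted log2 difference 1.07 ± 0.18, edgeR adjusted p = 0.0437). Its levels hardly varied within the libraries titled FOXR2. Over the alternative fits Sap30 lost its call in 8 and kept it in 5. Of 10 genes that MYC proteins repress, Thbs1 was called higher and 0 lower, with a list median of 0.054. That is 10% called higher, against 0.908% of all tested genes. The share at an unadjusted p under 0.05 was 30%, against 24.9% of all tested genes. Thbs1, an inhibitor of vessel growth, had 17, 142 and 69 counts in FOXR2 replicates 1, 2 and 3, against 2, 4 and 3 counts in Control replicates 1, 2 and 3 (fitted log2 difference 4.77 ± 0.87, edgeR adjusted p = 0.0462), so the size of its change rests on few counts. It was highest in FOXR2 replicate 2, where microglia and macrophage markers summed to 1146 CPM, against 4.60 to 13.9 CPM in the other libraries. The part of those cells in the Thbs1 level was not tested. Over the alternative fits Thbs1 lost its call in 9 and kept it in 4. In limma-voom Thbs1 was not called (limma adjusted p = 0.114).

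The other lists had 0 calls by edgeR, and DESeq2 called Notch1, Rybp and Id2 higher and Tcf7 and Mlx lower in them. By DESeq2 6.99% of all tested genes were called higher and 7.03% lower, so single calls in such lists are common. Of 15 tested regulators of Myc or Mycn transcription, 2 were higher and 1 lower at an unadjusted p under 0.05. These make up 20% of the list, below the 24.9% of all tested genes. Notch1, the receptor that drives Myc in T cell leukemia, had 288, 206 and 266 CPM in the libraries titled FOXR2, against 130.2, 140.3 and 137 CPM in those titled Control (fitted log2 difference 0.90 ± 0.19, edgeR adjusted p = 0.0552; DESeq2 adjusted p = 0.000621). Stat3 and Tcf7 had log2 fold changes of 0.47 ± 0.19 and -1.44 ± 0.42 (edgeR adjusted p = 0.179 and 0.103). E2f1, E2f2 and E2f3, whose products bind E2F letters such as those in the Mycn promoter, had log2 fold changes of 0.52, 0.40 and -0.18, with overlapping groups (edgeR adjusted p = 0.292, 0.536 and 0.579).

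The MLX arm, which senses glucose beside the MAX network, had 4 of 5 genes tested and 1 lower at an unadjusted p under 0.05. Its member Mlx, the partner of MondoA and ChREBP, had 35.4, 32.5 and 30.1 CPM in the libraries titled FOXR2, against 48.0, 60.4 and 54.1 CPM in those titled Control (fitted log2 difference -0.73 ± 0.18, edgeR adjusted p = 0.0700; DESeq2 adjusted p = 0.0149). The share at an unadjusted p under 0.05 was thus 25%, near that of all tested genes (24.9%). Arrdc4 and Mlxip had log2 fold changes of -0.61 and -0.31. Of 9 tested partners of MGA in the Polycomb complex PRC1.6, Rybp and Ring1 had log2 fold changes of 0.65 ± 0.20 and -0.61 ± 0.21 (edgeR adjusted p = 0.113 and 0.139), 1 in each direction at an unadjusted p under 0.05, and Pcgf6 had -0.47 ± 0.27. The share of PRC1.6 genes at an unadjusted p under 0.05 was 22.2%, below that of all tested genes.

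Enzymes of MYC protein turnover had a median log2 fold change of -0.0023 over 14 tested genes, with 1 higher (Gsk3b, a kinase that marks MYC for destruction) and 1 lower (Stub1, a ubiquitin ligase gene) at an unadjusted p under 0.05 (log2 fold changes 0.47 ± 0.17 and -0.73 ± 0.23, edgeR adjusted p = 0.149 and 0.117). Usp22, a deubiquitinase gene, had 0.49 ± 0.21. Of 11 cell cycle genes that MYC induces, Id2 and Ccnd1 were higher at an unadjusted p under 0.05 and 0 were lower, with log2 fold changes of 0.76 ± 0.23 and 0.93 ± 0.36 (edgeR adjusted p = 0.109 and 0.171). The shares at an unadjusted p under 0.05 were 14.3% of the turnover list and 18.2% of the cell cycle list, both below the 24.9% of all tested genes. Tert, the telomerase gene, had a mean of 0.396 ± 0.151 CPM in FOXR2 replicates 1 to 3 and 0.927 ± 0.206 CPM in Control replicates 1 to 3 (SD, n = 3 each; edgeR adjusted p = 0.225).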

How the data were processed

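Per the labels' protocols, poly(A) RNA of snap-frozen tumors was made into strand-keeping libraries and sequenced as single reads of 51 bases. The authors deposited whole-number read counts per gene symbol, without normalization. The submitters' processing notes list TopHat and DESeq2 with no version, and name the human build hg19 although the symbols are of mouse genes. The sources used here do not give the counting tool, the annotation or the use of strand. A deposited sheet of group names contradicts the titles, which were used.

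Genes were kept by filterByExpr (minimum count 10), scaled by TMM and tested with edgeR 4.0.16 in R 4.3.3 (glmQLFit, 3 libraries against 3, no covariate). Log2 fold changes use a prior count of 0.125, and the standard error is the fold change divided by the root of F. Checks used DESeq2 1.42.0 and limma 3.58.1. The edgeR, DESeq2 and limma-voom fits without covariates were tested on simulated data, and the other steps were not. The labels do not say whether each tumor came from its own animal. Both sexes occur in each group, so each group holds more than 1 animal. The p-values measure only the spread among these libraries. The 23 rows holding dates were never named. Members and lists were chosen with earlier results of these data known. Named were all members, the called genes of each list (up to 5) or otherwise the 3 smallest p-values, 2 tested neighbours on each side of Myc and Mycn, and the 3 genes most like each.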

Additional observations from a re-analysis of the deposited data

How the results depend on the processing

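No network gene changed its call under limma-voom, RLE factors, total-count scaling, no filter, the replicate block, animal sex or with any 1 library left out, while DESeq2 called 3 higher. Among all genes edgeR called 119 higher and 181 lower. DESeq2 called 916 and 921, total-count scaling 119 lower, and animal sex as a covariate 7 and 0 (1127 and 1271 at an unadjusted p under 0.05). The replicate block called 0 and 0 (1218 and 1434 at an unadjusted p under 0.05). Leaving out 1 library gave 1 to 123 higher and 0 to 82 lower. Of the related lists, 2 higher and 6 lower became 6 and 16 by DESeq2, 1 higher by limma-voom, 3 lower with total-count scaling, and 0 and 0 with animal sex or the replicate block (6 and 20, and 8 and 24, at an unadjusted p under 0.05). Leaving out 1 library gave 0 higher and 0 to 5 lower in the lists. Correlations of deviations were -0.016, -0.24 and -0.010 for the same replicate numbers, and -0.198 to 0.249 for different numbers. Not every sample correlated best with its own number. Deviations were taken from means of 3 libraries, so these values cannot settle whether the numbers pair the samples. With any 1 library left out, log2 fold changes ran from -0.61 to 0.17 for Mycl and -0.65 to 0.16 for Mxi1, turning without Control replicate 3, and from -0.40 to 0.079 for Max and -0.068 to 0.25 for the neighbour Ddx1, turning without FOXR2 replicate 3. The Mycn to Myc difference was 1.2 to 1.95 with any 1 library left out. It was 0.99 per kilobase, where the same constant was added after division by length. Each gene's length is the same in every library, so length alone cannot change this difference. The lower value comes from the added constant, which weighs more on the smaller per-kilobase levels of Mycn. The cause of the shifts with 1 library left out was not tested. Mycn rests on 11 to 27 counts in the libraries titled Control, which limits its precision.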
